A study of Mus musculus with 36 samples.

Results

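Across an allelic series of the chromatin remodeller gene Chd8, the transcripts of 10 genes that drive neurogenesis were followed: the proneural factors Neurog1 and Neurog2, the intermediate progenitor factors Eomes and Insm1, the cell cycle exit gene Gadd45g, the neuronal differentiation factors Neurod1, Neurod2, Neurod4 and Neurod6, and the RNA-binding protein gene Elavl1. The genes were taken by name from 46603 genes in the count tables, and all 10 were found. RNA-seq was performed on C57Bl/6J embryonic cortex at E12.5 and E10.5 with 3 libraries in each group. The study describes the tissue as neocortex at E12.5 and as telencephalic vesicles at E10.5. At E12.5 each library came from 1 embryo, and the genotypes were wildtype (Chd8 +/+), heterozygous (Chd8 +/-), Chd8 neo/neo, which has a neomycin cassette that lowers expression in both alleles, and Chd8 neo/-, which combines 1 such hypomorphic allele with a null allele. At E10.5 RNA of a pair of embryos was pooled for each library. The E10.5 knockout (cKO) was sox1-Cre; Chd8f/f, in which Cre acts in the neural lineage and leaves Chd8 intact in other cells. Its control (Ctrl) was labelled as a combination of Chd8f/f and Chd8 f/+ embryos, and the study's methods give its controls as floxed embryos without Cre.

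Excitatory neurons of the cortex arise when proneural basic helix-loop-helix (bHLH) factors push radial glia out of self-renewal. Neurog2 and its relative Neurog1 start this programme in the dorsal telencephalon, Insm1 and Eomes (also called Tbr2) mark and shape the intermediate progenitors that follow, and Gadd45g, a stress-response gene family member, is switched on as cells leave the cycle. Neurod1 and Neurod4 act early in differentiation, whereas Neurod2 and Neurod6 mark postmitotic projection neurons. The bHLH factors pair with E proteins such as Tcf3 and bind a DNA motif called the E-box. Elavl1 (HuR) differs from the others in being made by nearly all cells, unlike its neuronal relatives Elavl2, Elavl3 and Elavl4.

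Total counts were 38774591 to 61051667 per library at E12.5 (median 47559266) and 49632937 to 68488879 at E10.5 (median 57236999). Levels are given as CPM, the counts of a gene relative to the size of its library, scaled by the trimmed mean of M values (TMM). Chd8 itself was at 235 to 240 CPM in wildtype, 165 to 170 in Chd8 +/-, 203 to 213 in Chd8 neo/neo and 142 to 158 in Chd8 neo/- libraries, with no overlap between genotypes. In cKO it was at 116 to 125 CPM against 160 to 184 in Ctrl. At both stages these counts cover the whole gene, not the floxed or disrupted part alone. The study reports a larger loss of CHD8 protein in Chd8 neo/neo than in Chd8 +/-, and the largest in Chd8 neo/-. Its quantitative RT-PCR of Chd8 transcripts in younger embryos gave the same order. The E12.5 counts do not follow that order for Chd8 neo/neo, where the study found transcripts spliced into the cassette. The dorsal telencephalic markers Emx1 and Lhx2 were detected in every library. Ventral telencephalic markers such as Dlx1 were present too, with the 10 genes of that list summing to 616 to 821 CPM at E12.5 and 11.4 to 28.9 CPM at E10.5. A pair of libraries stood apart in values that touch the results below. In Chd8 +/- replicate 2 the diencephalon and midbrain list summed to 340 CPM against 114 to 168 in the other E12.5 libraries, and in Ctrl replicate 2 most members were far below the other controls.

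The members lie on 8 chromosomes. In GRCm38 coordinates, Neurog2 occupies chr3:127633135-127635631 (plus strand) and Neurog1 chr13:56250505-56252163 (minus). Eomes lies at chr9:118478212-118486132 (plus), Insm1 at chr2:146221921-146225020 (plus) and Gadd45g at chr13:51846678-51848468 (plus). Neurod1 lies at chr2:79452521-79456751, Neurod2 at chr11:98325415-98329648, Neurod4 at chr10:130268153-130280240, Neurod6 at chr6:55677822-55681263 and Elavl1 at chr8:4284782-4325100, all on the minus strand. Neurog1 and Insm1 are single-exon genes in this annotation. Only Neurod1 shared exon bases with other genes, 201 bases with Cerkl on the same strand and 154 with Gm26755 on the opposite strand, of 2729 bases in all. Strand cannot separate the Cerkl overlap, and as the E12.5 reads were counted without strand the Gm26755 overlap could not be told apart either. For E10.5 the strand setting was not given in the sources used here.

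Promoter windows of 300 bases (250 before and 50 after the start, RefSeq, GRCm38.p6) were found for 9 of the 10 members. Those of Neurod2 and Neurod6, whose levels rose and fell together across E12.5 libraries, and of Gadd45g, the only member called by edgeR in a comparison with wildtype, are shown 5′ to 3′ on the strand of the gene, with each E-box (CANNTG) in capitals.
Neurod2 (chr11:98329596-98329895, minus): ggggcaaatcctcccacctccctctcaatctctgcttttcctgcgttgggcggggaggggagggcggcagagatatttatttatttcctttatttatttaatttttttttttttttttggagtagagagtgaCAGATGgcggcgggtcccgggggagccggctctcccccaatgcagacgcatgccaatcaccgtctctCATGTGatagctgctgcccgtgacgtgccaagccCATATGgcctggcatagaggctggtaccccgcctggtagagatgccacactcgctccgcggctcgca
Neurod6 (chr6:55681214-55681513, minus): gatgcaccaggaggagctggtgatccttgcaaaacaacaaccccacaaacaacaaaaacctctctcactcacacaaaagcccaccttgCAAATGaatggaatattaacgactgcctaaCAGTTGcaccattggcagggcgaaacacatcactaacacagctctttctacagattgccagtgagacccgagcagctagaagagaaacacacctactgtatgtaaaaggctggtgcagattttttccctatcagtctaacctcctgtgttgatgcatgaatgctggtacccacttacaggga
Gadd45g (chr13:51846425-51846724, plus): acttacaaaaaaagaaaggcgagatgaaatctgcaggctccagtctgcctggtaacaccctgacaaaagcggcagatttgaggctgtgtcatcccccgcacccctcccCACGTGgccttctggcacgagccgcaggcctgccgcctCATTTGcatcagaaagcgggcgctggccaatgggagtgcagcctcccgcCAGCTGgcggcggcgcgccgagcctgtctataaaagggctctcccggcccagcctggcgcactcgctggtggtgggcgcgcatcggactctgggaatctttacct
The Neurod2 window held 3 E-boxes, the Neurod6 window 2 and the Gadd45g window 3. Across members, 6 of 9 had at least 1 CANNTG in a window, against 72.3% of all 32851 mouse windows of this length. CAGATG or its reverse complement, the form preferred by Neurog and NeuroD proteins, was found in 1 member (Neurod2) against 17.2% of all windows, and CAGCTG in 2 (Neurod4 and Gadd45g) against 16.3%. Both of these are forms of CANNTG, both strands were searched, and a match is a description of the letters only.

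In wildtype E12.5 neocortex, levels per kb of exon were highest for Neurog2 at 47.1 ± 0.73 CPM per kb (SD, n = 3), followed by Neurod6 at 39.6 ± 8.88, Eomes at 37.5 ± 1.26 and Elavl1 at 33.9 ± 1.68. Neurod6 varied between 32.3 and 49.5 CPM per kb, a range that spans the other 3 of these. Gadd45g (26.9 ± 0.79) and Insm1 (22.8 ± 0.92) came next, then Neurod2 (16.8 ± 2.61) and Neurod1 (15.2 ± 0.78), which overlapped. Neurog1 (7.30 ± 1.16) and Neurod4 (2.61 ± 0.14) were lowest. Thus Neurog2 exceeded its paralogue Neurog1 in all 3 wildtype libraries.

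**Figure D1:**
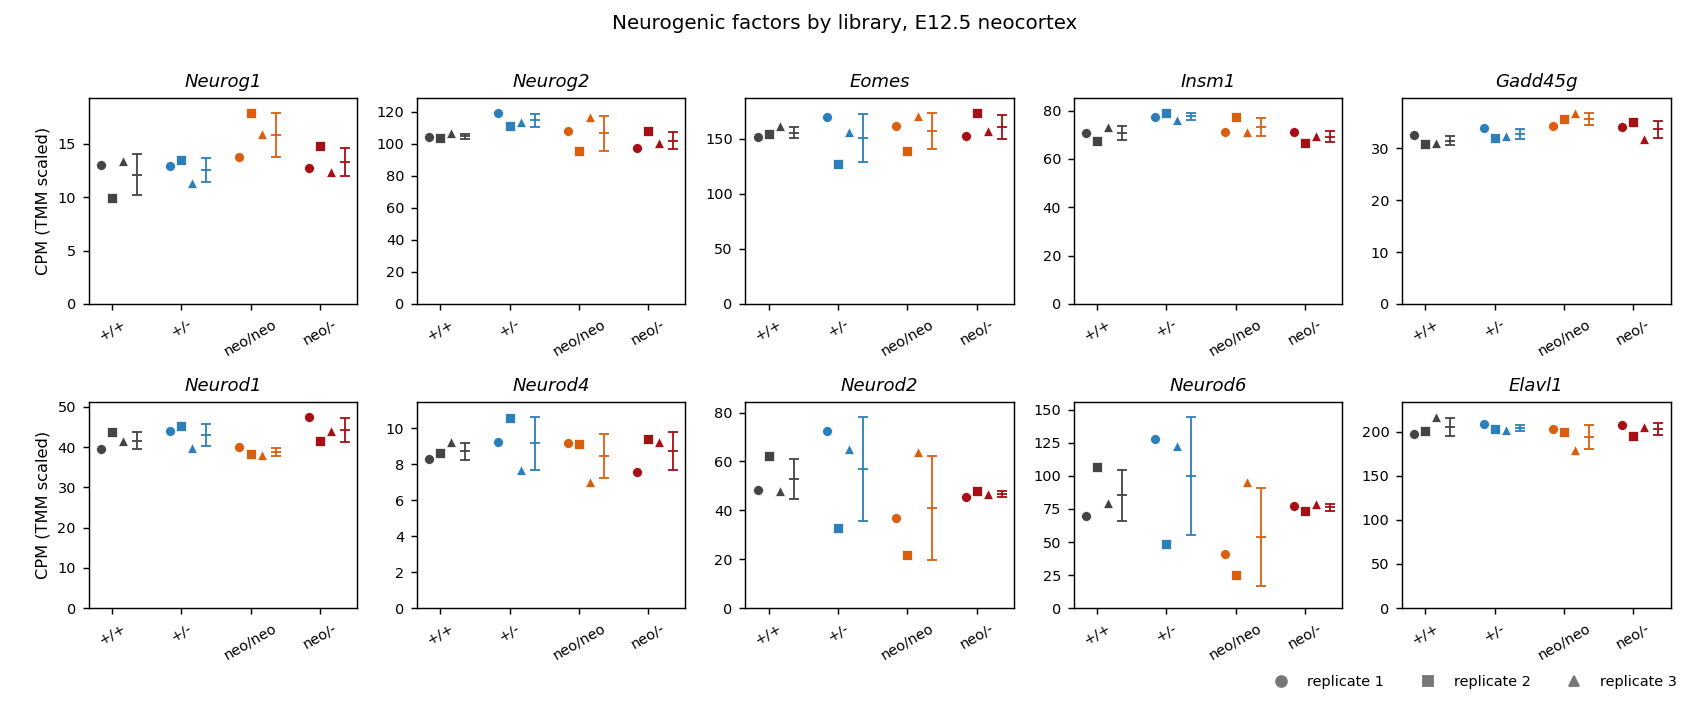
Levels of the 10 members in each E12.5 library (y axis, TMM-scaled CPM from 0) by Chd8 genotype (x axis). Symbols are libraries (replicates 1, 2 and 3) and bars the mean ± SD of 3. Most members stayed within a narrow band, whereas Neurod2 (21.9 to 72.6 CPM) and Neurod6 (24.8 to 128 CPM) spread widely within Chd8 +/- and Chd8 neo/neo.

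Across the Chd8 genotypes most of these transcripts stayed near their wildtype level at E12.5. By edgeR's quasi-likelihood test, 1 of 10 members passed an adjusted p of 0.05 in Chd8 neo/neo against wildtype, where 8.16% of 18810 genes tested passed. None of the 10 passed in Chd8 neo/- (11.5% of genes) and none in Chd8 +/- (0.0213% of genes). At an unadjusted p under 0.05 there were 2, 0 and 1 members respectively, against 4746, 4991 and 1190 of 18810 genes. DESeq2 called 2, 0 and 0 members, against 2285 of 13757, 2603 of 14366 and 15 of 16799 genes. The 2 groups compared did not overlap for 2, 0 and 2 members, against 26%, 33.3% and 11.4% of all genes. For the members the median log2 difference from wildtype was -0.02 (Chd8 neo/neo), -0.01 (Chd8 neo/-) and 0.06 (Chd8 +/-), against 0.01, 0.00 and 0.00 over all genes tested. These 3 comparisons share the wildtype libraries. In bulk tissue, fewer cells of a type and less RNA per cell cannot be told apart.

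**Figure D2:**
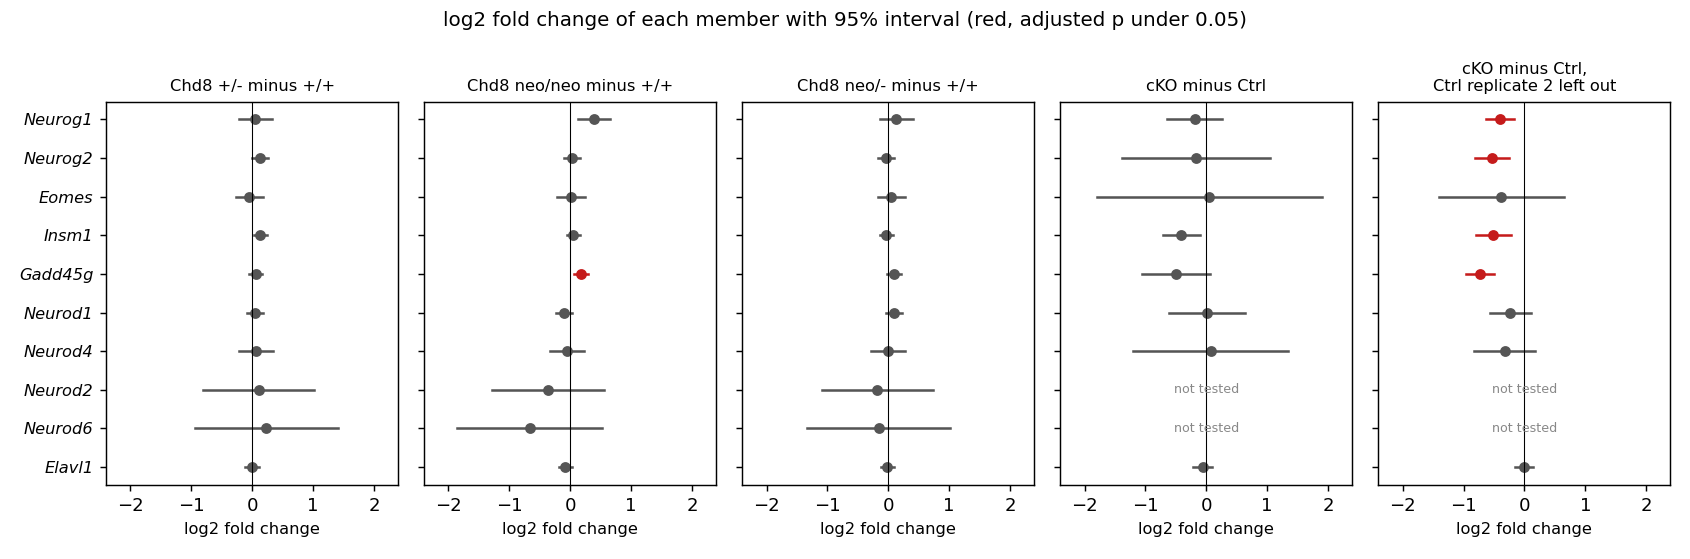
Fold change of each member on the log2 scale (x axis, point) with its 95% interval (line) in 5 comparisons, with red marking an edgeR adjusted p under 0.05. Gadd45g alone is red in Chd8 neo/neo, and 4 members are red in cKO once Ctrl replicate 2 is left out.

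Among the proneural genes, Neurog2 was at 104, 104 and 107 CPM in wildtype, 119, 111 and 114 in Chd8 +/-, 108, 95.3 and 117 in Chd8 neo/neo and 97.5, 108 and 101 in Chd8 neo/-. The 3 Chd8 +/- libraries lay above all wildtype libraries, by a log2 fold change of 0.13 ± 0.06 (SE) with an edgeR adjusted p of 0.797. In Chd8 neo/neo the log2 difference was 0.02 with a 95% interval of -0.11 to 0.16, and in Chd8 neo/- it was -0.04 with an interval of -0.17 to 0.09. Neurog1 was at 13.02, 9.89 and 13.4 CPM in wildtype, 12.9, 13.5 and 11.3 in Chd8 +/-, 13.8, 17.9 and 15.9 in Chd8 neo/neo and 12.7, 14.8 and 12.4 in Chd8 neo/-. All 3 Chd8 neo/neo values lay above the wildtype values. Its log2 fold change in Chd8 neo/neo was 0.39 ± 0.12 (SE), a 1.31-fold difference with an edgeR adjusted p of 0.0678. DESeq2 gave 0.39 with an adjusted p of 0.0221. In Chd8 neo/- the corresponding value was 0.13 ± 0.12, and the direct difference between the hypomorphs (-0.25 ± 0.12) did not pass (adjusted p = 0.593, edgeR).

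Of the intermediate progenitor factors, Eomes was at 151, 154 and 161 CPM in wildtype, 170, 127 and 156 in Chd8 +/-, 161, 139 and 170 in Chd8 neo/neo and 152, 173 and 157 in Chd8 neo/-. The groups overlapped throughout. Its log2 differences from wildtype lay between -0.05 and 0.05, and the 95% interval was -0.22 to 0.24 in Chd8 neo/neo and -0.18 to 0.27 in Chd8 neo/-. The lowest value was that of Chd8 +/- replicate 2. Insm1, a zinc finger repressor that promotes the formation of basal progenitors, was at 70.9, 67.6 and 73.3 CPM in wildtype, 77.4, 79.0 and 76.3 in Chd8 +/-, 71.1, 77.3 and 71.0 in Chd8 neo/neo and 71.1, 66.6 and 69.7 in Chd8 neo/-. All 3 Chd8 +/- values exceeded the wildtype values, by 0.14 ± 0.05 on the log2 scale (edgeR adjusted p = 0.649). In Chd8 neo/- against Chd8 +/- Insm1 was lower by a log2 fold change of -0.17 ± 0.05 (edgeR adjusted p = 0.0565), without overlap between the groups. That comparison called 5.43% of genes and none of the members, and 30.9% of all genes did not overlap in it. Of the members DESeq2 called Insm1 alone (adjusted p = 0.0154), with 1689 of 13757 genes called.

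Gadd45g was the only member that rose in a hypomorph by the edgeR test. It was at 32.6, 30.9 and 31.1 CPM in wildtype, 33.9, 32.1 and 32.3 in Chd8 +/-, 34.4, 35.7 and 36.8 in Chd8 neo/neo and 34.1, 35.1 and 31.9 in Chd8 neo/-. The Chd8 neo/neo libraries lay above those of wildtype without overlap, in a comparison where 26% of all genes did not overlap. The log2 fold change was 0.18 ± 0.05 (SE), a 1.13-fold increase with an edgeR adjusted p of 0.0479. This call did not hold in 21 of 22 other ways of fitting the data, in which the log2 fold change was 0.14 to 0.20 and the adjusted p up to 0.136. In Chd8 neo/- the log2 fold change was 0.10 ± 0.05 (adjusted p = 0.254, edgeR), and the direct difference between the hypomorphs was -0.08 ± 0.05 (adjusted p = 0.68).

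The early NeuroD genes also stayed close to wildtype. Neurod1 was at 39.4, 43.7 and 41.6 CPM in wildtype, 43.9, 45.1 and 39.8 in Chd8 +/-, 40.0, 38.2 and 38.1 in Chd8 neo/neo and 47.4, 41.6 and 43.9 in Chd8 neo/-. The hypomorphs lay on opposite sides of wildtype, with a log2 difference of -0.10 ± 0.06 for Chd8 neo/neo and of 0.09 ± 0.06 for Chd8 neo/-. Their direct difference was 0.19 ± 0.06 with an unadjusted p of 0.00728 and an edgeR adjusted p of 0.515, in a comparison that called 0.0159% of genes. Neurod4, the lowest of the members, was at 7.03 to 10.6 CPM over the 12 libraries, and differed from wildtype by -0.05 (Chd8 neo/neo) and 0.00 (Chd8 neo/-) on the log2 scale, each with an SE of 0.13.

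Neurod2 and Neurod6 differed more between embryos of 1 genotype than between genotypes. Neurod6 was at 69.4, 106 and 79.8 CPM in wildtype, 128, 48.4 and 123 in Chd8 +/-, 40.9, 24.8 and 95.5 in Chd8 neo/neo and 77.2, 73.4 and 78.4 in Chd8 neo/-. Neurod2 was at 48.5, 62.3 and 47.7 CPM in wildtype, 72.6, 32.6 and 65.3 in Chd8 +/-, 36.8, 21.9 and 63.9 in Chd8 neo/neo and 45.3, 47.9 and 46.6 in Chd8 neo/-. Both genes were thus low in the same 3 libraries, Chd8 +/- replicate 2 and Chd8 neo/neo replicates 1 and 2, and the 3 Chd8 neo/- libraries hardly differed. The sex-linked gene Xist was at 2011 and 1828 CPM in Chd8 neo/neo replicates 1 and 2 and at 2.487 CPM in replicate 3. Of the Chd8 +/- libraries, replicate 2 was at 2.093 CPM, and replicate 1, the highest for both genes, was at 1458 CPM. Chd8 +/+ replicate 3, not among the low libraries, was at 2043 CPM. The part of embryo sex in this spread was not tested. Within Chd8 neo/neo the highest Neurod6 level was 3.84-fold the lowest, against 1.53-fold in wildtype and 1.07-fold in Chd8 neo/-. The within-genotype SD of log2 CPM was 0.65 for Neurod6 and 0.51 for Neurod2, against a median of 0.09 over 14787 genes at 1 CPM or more, of which 99.4% and 99.0% had a smaller SD. With this spread, Neurod6 in Chd8 neo/neo had a log2 fold change of -0.66 ± 0.52 (SE), with an edgeR adjusted p of 0.48 and a 95% interval of -1.85 to 0.52. Without Chd8 neo/neo replicate 3 it was -1.39 ± 0.45 (adjusted p = 0.0897), the largest fall in 22 other fits, which reached up to -0.32. For Neurod2 the value was -0.37 ± 0.40 (adjusted p = 0.628), and -0.86 ± 0.36 (adjusted p = 0.171) without that library. Over the other fits Neurod2 was at -0.86 to -0.07. Replicate 3 was the highest Chd8 neo/neo library for both genes, so leaving it out lowers the mean of the same genes.

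**Figure D3:**
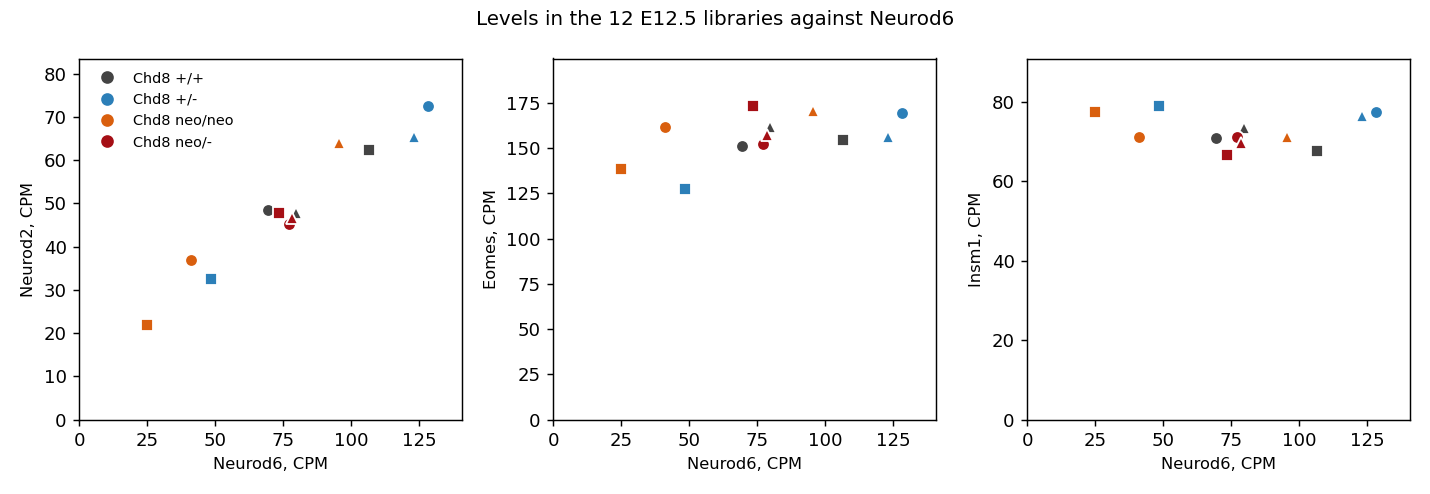
Levels of Neurod2, Eomes and Insm1 (y axes, CPM from 0) against Neurod6 (x axis, CPM) in the 12 E12.5 libraries, coloured by genotype, with symbols for replicates 1 (circle), 2 (square) and 3 (triangle). Neurod2 follows Neurod6 along 1 line from Chd8 neo/neo replicate 2 at the bottom to Chd8 +/- replicate 1 at the top, while Insm1 stays between 66.6 and 79.0 CPM.

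After subtraction of each genotype's mean, Pearson's r between Neurod2 and Neurod6 over the 12 libraries was 0.987. Eomes followed both in part, with r of 0.851 with Neurod2 and 0.807 with Neurod6, and Neurog2 had r of 0.780 and 0.725. Insm1 ran the other way (r of -0.682 and -0.604), as did Neurod4 (-0.667 and -0.713). These are descriptions over libraries that share depth and dissection. Several marker lists moved with these genes. Within genotypes Neurod6 had r of -0.816 with the summed radial glia genes and 0.646 with the summed early neuron genes. The radial glia list summed to 4499 and 4620 CPM in Chd8 neo/neo replicates 1 and 2, against 3827 CPM in replicate 3. Abundant genes weigh most in this sum, such as Hmga2 at 622 and 633 against 360 CPM. Fabp7 (197 and 208 against 249 CPM) and Slc1a3 (86.8 and 73.6 against 100 CPM) ran the other way, while the remaining genes of the list went with the sum. The diencephalon and midbrain list, in which Tcf7l2 reached 159 CPM in Chd8 +/- replicate 2 against 24.3 to 38.2 CPM elsewhere, had r of -0.825 with Eomes and -0.752 with Neurod6. That library also had the lowest sum of the 6 dorsal telencephalic markers outside the members, 1065 CPM against 1182 to 1396 CPM in the other libraries, and the highest sum of mesenchyme and meninges markers, 1134 CPM against 536 to 838 CPM. Chd8 neo/neo replicate 1, in contrast, combined low Neurod6 with the highest dorsal sum. The part of tissue makeup in the levels of Neurod2, Neurod6 and Eomes was not tested. With Chd8 +/- replicate 2 and Chd8 neo/neo replicate 2 both left out, no member passed in Chd8 neo/neo, and the log2 fold change of Eomes in Chd8 +/- was 0.06 ± 0.06 in place of -0.05 ± 0.10.

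Elavl1 was at 197, 200 and 216 CPM in wildtype, 208, 203 and 202 in Chd8 +/-, 203, 199 and 179 in Chd8 neo/neo and 207, 195 and 206 in Chd8 neo/-. The largest log2 difference from wildtype was -0.08 ± 0.05 in Chd8 neo/neo (edgeR adjusted p = 0.366). Of its neuronal relatives, Elavl4 fell there by 0.29 ± 0.07 on the log2 scale (adjusted p = 0.0173) and Elavl2 fell by 0.18 ± 0.05 (adjusted p = 0.0488), whereas Elavl3 was at 304 to 366 CPM in Chd8 neo/neo against 354 to 369 CPM in wildtype and did not pass. The difference between Elavl1 and its relatives was not tested.

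In the other direct comparisons between mutants, none of the members was called by edgeR, with 5.28% of genes called in Chd8 neo/neo against Chd8 +/- (994 genes, or 572 with the replicate number as a block). In that comparison 3 members had an unadjusted p under 0.05, in Chd8 neo/- against Chd8 +/- there were 2, and in Chd8 neo/- against Chd8 neo/neo there was 1. Over all 18810 genes tested the counts at that level were 4369, 4232 and 1585 respectively. DESeq2 called 0, 1 and 0 members, against 1788 of 14973, 1689 of 13757 and 27 of 16190 genes.

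Genes that work with or downstream of the members were followed as lists, with 8.16% (Chd8 neo/neo) and 11.5% (Chd8 neo/-) of all genes called. Of 22 neurogenic targets and intermediate progenitor genes, 4 fell and none rose in Chd8 neo/neo, 2 fell and none rose in Chd8 neo/-, and none passed in Chd8 +/-. The 2 with the smallest adjusted p in both hypomorphs were Celsr3, an atypical cadherin of axon guidance, and Cbfa2t3, a transcriptional corepressor. Celsr3 fell by 0.35 ± 0.06 on the log2 scale in Chd8 neo/neo (adjusted p = 0.00494) and by 0.45 ± 0.06 in Chd8 neo/- (adjusted p = 0.000365). Cbfa2t3 fell by 0.41 ± 0.08 (adjusted p = 0.0122) and by 0.53 ± 0.09 (adjusted p = 0.00167). This list had a median of -0.01 for Chd8 neo/neo and -0.03 for Chd8 neo/-. Of 16 early neuron genes, 3 fell and none rose in each hypomorph, and the list medians on the log2 scale were -0.23 (Chd8 neo/neo) and -0.14 (Chd8 neo/-). The same 3 genes, Map2, Dcx and Sox11, passed in both. Blood markers stood beside these in Chd8 neo/-, where 3 of 6 rose and their sum was 4304 to 6863 CPM against 2982 to 3666 CPM in wildtype, and their part in these results was not tested. The ventral telencephalic sum was 783 to 821 CPM in wildtype, above 652 to 769 CPM (Chd8 neo/neo) and 616 to 766 CPM (Chd8 neo/-), with 9 and 8 of its 10 genes below 0 on the log2 scale and 1 called lower in each, and its part was not tested either. Dcx, a microtubule-associated protein of migrating neurons, fell by 0.42 ± 0.08 in Chd8 neo/neo (adjusted p = 0.00976) and by 0.34 ± 0.08 in Chd8 neo/- (adjusted p = 0.0174). Map2, a dendritic microtubule-associated protein, fell by 0.32 ± 0.06 (adjusted p = 0.00843) and by 0.21 ± 0.06 (adjusted p = 0.0411).

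Of 13 radial glia genes, 2 rose in Chd8 neo/neo, Sox2 by 0.29 ± 0.07 on the log2 scale (adjusted p = 0.0251) and Pax6, an activator of Neurog2, by 0.19 ± 0.04 (adjusted p = 0.0199), with a list median of 0.18, and none passed in Chd8 neo/-. Of 11 bHLH partners and inhibitors, 1 rose in each hypomorph. It was the E protein gene Tcf3 in Chd8 neo/neo (0.23 ± 0.05, adjusted p = 0.0232) and Id2, whose product keeps E proteins from DNA, in Chd8 neo/- (0.29 ± 0.08, adjusted p = 0.0360). Of 7 other proneural and neuronal bHLH genes, 5 passed the filter on low counts and none was called in any of the 6 comparisons at E12.5. All adjusted p-values here are from edgeR. The counts over all genes depended on single libraries. In Chd8 neo/neo against wildtype 435 of all genes were called without Chd8 neo/neo replicate 2, 565 without replicate 1 and 2605 without replicate 3, against 1534. Without Chd8 +/+ replicate 2 the count was 564 and without replicate 3 it was 800. In Chd8 neo/- against wildtype the count fell from 2158 to 1052, 1015 and 1190 without Chd8 neo/- replicates 1, 2 and 3, and to 1202 without Chd8 +/+ replicate 3. In Chd8 neo/- against Chd8 +/- it fell from 1021 to 244, 255 and 470 without Chd8 neo/- replicates 1, 2 and 3, and to 290 and 509 without Chd8 +/- replicates 1 and 3.

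At E10.5, before most cortical neurons are born, most members were lower than at E12.5, and Neurod2 and Neurod6 were nearly absent. Neurod6 had 0 counts in all 6 libraries, which allows up to 3 counts or 0.0597 CPM per library, and Neurod2 had 7 counts in all with at most 2 in a library. In Ctrl, Elavl1 was highest at 44.3 ± 3.07 CPM per kb (SD, n = 3), followed by Gadd45g (15.7 ± 5.03), Neurog2 (8.81 ± 4.50), Neurog1 (8.17 ± 2.41), Eomes (7.16 ± 4.34), Insm1 (3.87 ± 0.55), Neurod1 (2.397 ± 0.83) and Neurod4 (0.60 ± 0.37). Gadd45g overlapped Neurog2 and Neurog1. Neurog2, Neurog1 and Eomes overlapped, both Neurog2 and Eomes overlapped Insm1, and Eomes also overlapped Neurod1. Set side by side with wildtype at E12.5, Eomes was at 8.96 to 41.5 CPM against 151 to 161, Neurog2 at 8.66 to 28.3 against 104 to 107, Insm1 at 10.2 to 13.6 against 67.6 to 73.3, and Neurod1 at 4.12 to 8.59 against 39.4 to 43.7. Neurog1 was at 9.34 to 17.3 CPM at E10.5 and 9.89 to 13.4 at E12.5, so that it overlapped, and Elavl1 was higher at E10.5 (253 to 288 against 197 to 216 CPM). The stages were scaled as separate tables. Stage, dissection (neocortex against telencephalic vesicles), pooling and sequencing runs differ together between them, so their parts cannot be told apart and no test was made.

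**Figure D4:**
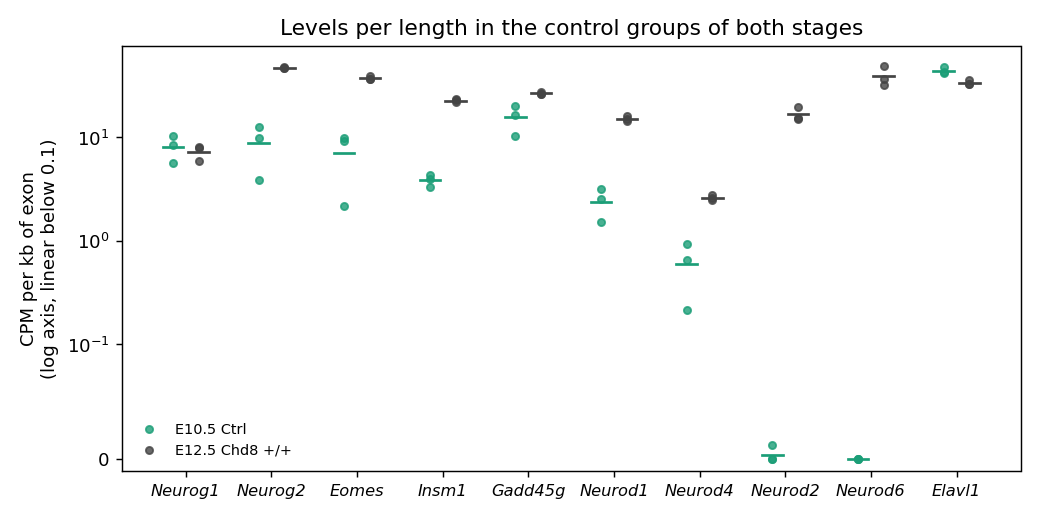
Levels per kb of exon (y axis, log scale, linear below 0.1) of the 10 members in Ctrl at E10.5 (green) and Chd8 +/+ at E12.5 (grey). Points are 3 libraries and lines their mean. Neurod2 and Neurod6 are at or near 0 at E10.5, whereas Neurog1 overlaps between the stages.

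Conditional loss of Chd8 called none of the 8 members that passed the filter on low counts, in a comparison in which edgeR called 11.4% of 18435 genes. At an unadjusted p under 0.05 there was 1 member, against 5049 of 18435 genes. DESeq2 called 1 (Insm1), against 2716 of 14876 genes. The outcome turned on Ctrl replicate 2. Without Ctrl replicate 2, 4 of 8 members were called, all lower in cKO, against 13.2% of genes, and all 8 log2 differences were below 0 with a median of -0.39 (0.00 over all genes tested). With all libraries, the median of the 8 was -0.12. Ctrl replicate 2 stood apart through the low levels of the members themselves. Leaving it out raises the control mean of the same genes, so these calls are not independent of that choice. No member passed when any other single E10.5 library was left out.

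**Figure D5:**
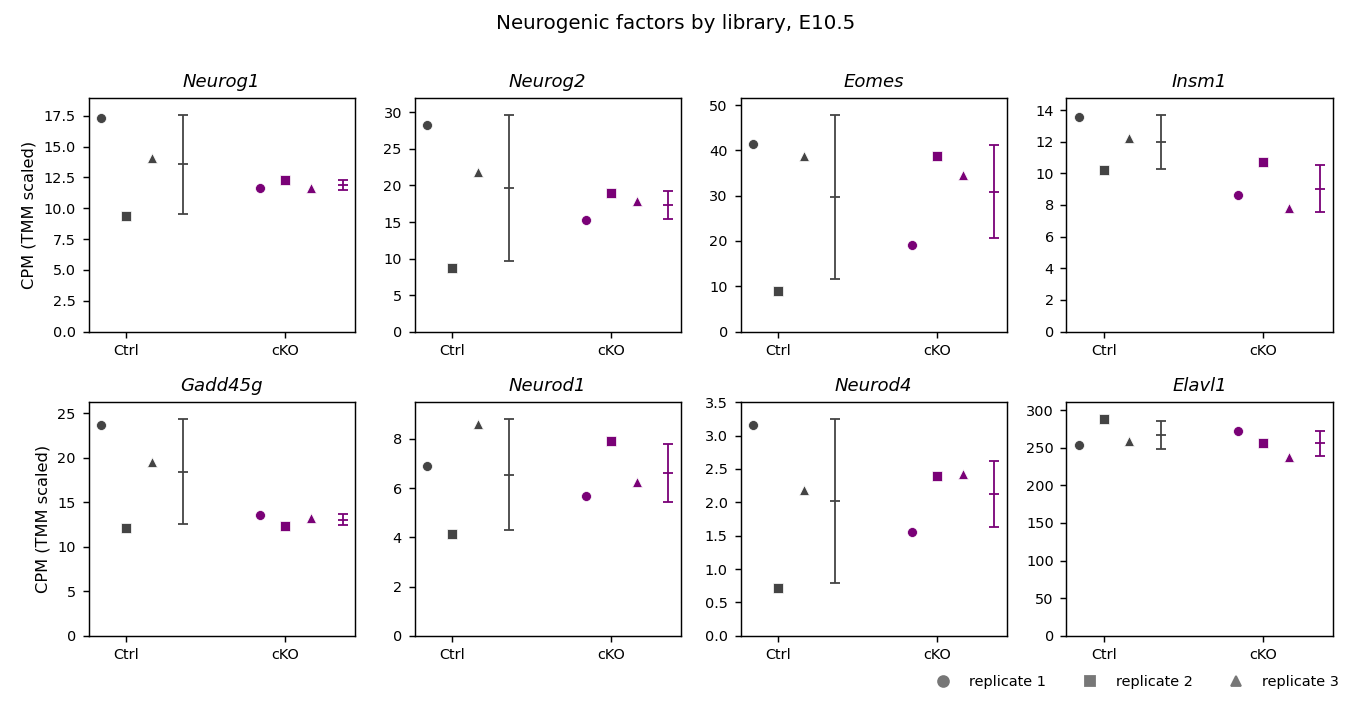
Levels of the 8 members tested in each E10.5 library (y axis, TMM-scaled CPM from 0) in Ctrl and cKO. Symbols are libraries (replicates 1, 2 and 3) and bars the mean ± SD of 3. Ctrl replicate 2 (square) is the lowest control for every member but Elavl1, where it is the highest.

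Neurog2 was at 28.3, 8.66 and 21.9 CPM in Ctrl and 15.3, 19.03 and 17.9 in cKO. The cKO libraries lay below Ctrl replicates 1 and 3 and above replicate 2. Its log2 fold change was -0.18 ± 0.46 (SE, edgeR adjusted p = 0.851), and -0.53 ± 0.12 (adjusted p = 0.0207) without Ctrl replicate 2. Neurog1 was at 17.3, 9.34 and 14.04 CPM in Ctrl and 11.7, 12.3 and 11.6 in cKO, with log2 fold changes of -0.19 ± 0.20 (edgeR adjusted p = 0.58) and -0.40 ± 0.11 (adjusted p = 0.0309) with and without that library. Without Ctrl replicate 1 instead, no member passed, and the values were 0.02 ± 0.15 for Neurog1, 0.18 ± 0.45 for Neurog2, 0.36 ± 0.81 for Eomes, -0.31 ± 0.14 for Insm1 and -0.28 ± 0.19 for Gadd45g. Gadd45g was at 23.7, 12.1 and 19.5 CPM in Ctrl and 13.6, 12.3 and 13.2 in cKO. It had the largest difference without Ctrl replicate 2, -0.73 ± 0.10 (a level 0.604 of control, adjusted p = 0.00157), against -0.50 ± 0.23 (adjusted p = 0.223) with all libraries. Its direction was thus opposite to that in Chd8 neo/neo at E12.5, and the difference between stages was not tested.

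Insm1 was at 13.6, 10.2 and 12.2 CPM in Ctrl and 8.60, 10.7 and 7.79 in cKO, and came closest to the threshold with all libraries (-0.41 ± 0.14, edgeR adjusted p = 0.0819). Without Ctrl replicate 2 it passed at -0.51 ± 0.13 (adjusted p = 0.0272), and with no filter on low counts it passed with all libraries (adjusted p = 0.0151). Eomes was at 41.5, 8.96 and 38.8 CPM in Ctrl and 19.2, 38.8 and 34.6 in cKO, so that the lowest library of each group was far below the others. Its log2 fold change was 0.05 ± 0.68, and -0.38 ± 0.35 (adjusted p = 0.575) without Ctrl replicate 2. Neurod1 was at 6.92, 4.12 and 8.59 CPM in Ctrl and 5.67, 7.92 and 6.24 in cKO, and Neurod4 was at 3.15, 0.717 and 2.18 CPM in Ctrl and 1.55, 2.39 and 2.42 in cKO. Neither passed with or without that library. Elavl1 was at 253, 288 and 259 CPM in Ctrl and 272, 257 and 238 in cKO (-0.06 ± 0.07, adjusted p = 0.613).

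At E10.5 the members other than Elavl1 deviated together within groups. Over the 6 libraries Pearson's r after subtraction of the group means was 0.960 between Eomes and Neurog2, 0.983 between Neurog1 and Neurog2 and 0.976 between Eomes and Neurod4, and -0.852 between Eomes and Elavl1. The within-group SD of log2 CPM was 0.96 for Eomes, larger than in 99.7% of 14440 genes, and 0.22 for Insm1. Ctrl replicate 2 and cKO replicate 1 held the lowest Eomes levels of their groups. These 2 libraries also had the highest sums of placode and sensory ganglion markers in their groups, 90.7 and 96.5 CPM against 58.2 and 64.8 in the other Ctrl and 85.3 and 79.6 in the other cKO libraries. The sensory neuron genes Prph (0.0398 to 0.315 CPM) and Tlx3 (0 to 0.0996 CPM) of that list were near 0 and Pou4f1 was at 1.57 to 2.33 CPM, whereas Eya1 was at 22.3 to 35.3 CPM. Of the 8 genes of this list tested, 1 was higher in cKO, and 3 without Ctrl replicate 2. Mesenchyme and meninges markers were higher in cKO for 3 of 8 genes, and their sum was 866 to 1062 CPM in cKO against 686 to 785 CPM in Ctrl. Ventral telencephalic markers summed to 11.4 to 19.2 CPM in cKO against 18.1 to 28.9 CPM in Ctrl, with 8 of 10 genes below 0, a median log2 difference of -0.38 and 1 called lower (2 and -0.62 without Ctrl replicate 2). Within groups Insm1 had r of 0.956 with this sum over the 6 libraries. Xist was at 3.09 CPM in Ctrl replicate 2 and at 1779 and 2141 CPM in the other Ctrl libraries, whereas the cKO libraries were at 708 to 1069 CPM. With Y-linked expression as a covariate, Gadd45g passed in cKO (-0.40 ± 0.09, edgeR adjusted p = 0.0166). As Ctrl replicate 2 alone was low in Xist, this call is not independent of that library. Beyond this covariate the part of embryo sex in these levels was not tested, and neither was that of stage or dissection.

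The pathway lists at E10.5 were read against 11.4% of all genes called, or 13.2% without Ctrl replicate 2. Of 22 neurogenic targets and intermediate progenitor genes, 2 fell and 1 rose in cKO. Celsr3 fell by 0.64 ± 0.11 on the log2 scale (edgeR adjusted p = 0.00455), as it had in both hypomorphs, and the chemokine receptor gene Cxcr4 fell by 0.33 ± 0.09 (adjusted p = 0.0460), while Mfap4 rose by 0.32 ± 0.08 (adjusted p = 0.0275). Without Ctrl replicate 2 the counts were 4 and 1. Of 13 radial glia genes, Sox1, the gene after which the Cre driver in cKO but not in Ctrl is named, fell by 0.63 ± 0.07 (adjusted p = 0.000537) and Prom1 fell by 0.25 ± 0.06 (adjusted p = 0.0289), and 4 fell without Ctrl replicate 2. Of 11 bHLH partners and inhibitors, only Id4 passed, falling by 0.46 ± 0.10 (adjusted p = 0.0204), and 3 fell without Ctrl replicate 2. None of the 16 early neuron genes passed, with a list median of 0.05, and 1 fell without Ctrl replicate 2. None of the 4 other proneural and neuronal bHLH genes tested passed, with a median of -0.03, whereas without Ctrl replicate 2 all 4 were below 0 with a median of -0.42 and 1 fell.

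Finally, the genes whose log2 CPM followed each member most closely over the 12 E12.5 libraries were ranked by Pearson's r among 14777 genes, as a description that draws on between-genotype and within-genotype variation alike. Neurod6 was followed by Aldoc (0.991), Sstr2 (0.989) and Fhl1 (0.984), and Neurod2 by Pde1b (0.988), Nkain2 (0.974) and Gm11266 (0.972). Sstr2, a somatostatin receptor gene of newborn cortical neurons, ranged from 11.7 CPM in Chd8 neo/neo replicate 2 to 28.2 CPM in Chd8 +/- replicate 1, the same libraries as the extremes of Neurod6. Eomes was followed by Igsf8 (0.923), the dorsal patterning gene Emx1 (0.920) and Hdac8 (0.888). For Neurog1 the closest genes were Zfp710, Zfp219 and Bag6 (0.922 to 0.941), for Neurog2 Amigo1, Lypd6b and Zfp287 (0.809 to 0.845), for Insm1 Ubfd1, Phf14 and Trim44 (0.863 to 0.886), and for Gadd45g Plekhm2, Mocs3 and Unc119 (0.906 to 0.931). Neurod1 was followed by Prune1, 4930480K23Rik and Acsl1 (0.803 to 0.856), Neurod4 by Brip1os, Pla2g4a and Zfp521 (0.838 to 0.902), and Elavl1 by ENSMUSG00000074873, Opa1 and Fut4 (0.864 to 0.881).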

How the data were processed

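mRNA of 18 libraries (12 of E12.5 neocortex, 6 of E10.5 telencephalic vesicles), each sequenced in 2 runs, was measured by paired-end RNA-seq. The deposited values are raw counts of fragments per gene, made by the authors with Trim Galore 0.4.1, TopHat2 2.1.0 on GRCm38.p4 and featureCounts 1.5.0, without a strand option at E12.5 per the file headers. The strand option at E10.5 was not given in the sources used here, and the library kit marked strand. Runs were summed per library. Replicates at E12.5 were single embryos and at E10.5 pools, so p-values measure the spread between these samples.

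Each stage was fitted alone with edgeR 4.0.16 in R 4.3.3 (filterByExpr, TMM, robust quasi-likelihood F-test, genotype as the only term, Benjamini-Hochberg over all genes tested, adjusted p under 0.05). SE is the absolute log2 fold change over the root of F. CPM and CPM per kb of exon were given per library, and log2 CPM used a prior count of 2. DESeq2 1.42.0, RLE and upper quartile scaling, no filter, a replicate block, single runs, sex-linked expression as a covariate, the compared groups alone and each library left out were alternatives, and the removal of 2 libraries together was chosen after seeing the data. The fit was tested on simulated data. Symbols were found for 46005 of 46603 gene identifiers. Promoter sequences are from RefSeq (GRCm38.p6).

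Some list genes are not reported here. The members and lists were chosen with earlier results of these data known. All members were named in all comparisons. From each list the 2 genes with the smallest adjusted p in each direction were named for the hypomorphs and the cKO, with Sox11, Elavl2, Elavl3, Elavl4, the marker genes and the levels of Sstr2 and Xist added after their values were seen, and 3 genes like each member by correlation. Same-numbered libraries of different groups deviated together (every correlation over 0.1) only in Chd8 neo/neo against Chd8 +/- (0.108 to 0.199), where the block left no member called, as without it.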

Additional observations from a re-analysis of the deposited data

How the results depend on the processing

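The counts of members called at an adjusted p of 0.05 rested on values close to that threshold. In Chd8 neo/neo against Chd8 +/+ the count was 1 (Gadd45g). It was 2 by DESeq2 (Neurog1 and Gadd45g) and 0 under RLE scaling, upper quartile scaling, no filter, run 1 alone, run 2 alone, sex-linked expression as a covariate, only the compared groups, and with 2 libraries left out together. With the replicate block it was also 0, and it was 0 without any single library (lowest 0, highest 0). In Chd8 neo/- against Chd8 +/- the count was 0, and it was 1 (Insm1) by DESeq2, under RLE scaling and with only the compared groups, and 0 to 1 with single libraries left out (Chd8 neo/neo replicate 2 or 3). In cKO against Ctrl the count was 0, and it was 1 by DESeq2 (Insm1), with no filter (Insm1) and with sex-linked expression as a covariate (Gadd45g), and 0 to 4 with single libraries left out, 4 without Ctrl replicate 2. The cause of these shifts was not tested. The other 4 counts were 0 under every alternative. Same-numbered libraries deviated together only in Chd8 neo/neo against Chd8 +/-, where the replicate block called 572 of all genes in place of 994. Those correlations were weak (0.108 to 0.199), and differently numbered libraries reached 0.225 in Chd8 neo/neo against Chd8 +/+. The study's methods give different crosses for Chd8 neo/neo and Chd8 +/-, so genotype and cross go together there. Counts over all genes also moved with single libraries left out, to 23 to 2100 in place of 994 for Chd8 neo/neo against Chd8 +/- (23 without Chd8 neo/neo replicate 2, 60 without replicate 1, 2100 without replicate 3, and 62 and 308 without Chd8 +/- replicates 1 and 3) and to 3 with 2 libraries left out together. They moved with only the compared groups (430 in place of 1534 for Chd8 neo/neo against Chd8 +/+, 42 in place of 994 against Chd8 +/-), with the sex-linked covariate (1005 and 387), by DESeq2 (1788 in place of 994, and 1689 in place of 1021 for Chd8 neo/- against Chd8 +/-, where run 2 alone gave 676) and in cKO with single libraries left out (538 to 2483 in place of 2110). For Chd8 +/- against Chd8 +/+ 4 genes became 15 by DESeq2, 2 with the block and 1 with only the compared groups, and for Chd8 neo/- against Chd8 neo/neo 3 became 27, 9 with no filter and 1. Of 1432 refitted log2 fold changes of single members, 1374 kept their side of the threshold and, where not called, moved by less than 1 SE, 13 passed newly, 21 no longer passed and 24 moved by more than 1 SE uncalled. In 76 of the uncalled cases the sign changed about 0. With 3 libraries a group, spread between libraries set the limit. The 95% interval of the log2 fold change was -1.85 to 0.52 for Neurod6 in Chd8 neo/neo against Chd8 +/+ and -1.79 to 1.90 for Eomes in cKO. Sizeable changes in either direction thus remained compatible with these data.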
